A study of Homo sapiens with 9 samples.

Results

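The miR-148/miR-152 family consists of hsa-mir-148a, hsa-mir-148b and hsa-mir-152, which are 3 of the 1485 microRNA hairpins in the deposited table. They were taken by name, and all 3 were abundant enough to be tested (a mean count of 10 or more). They were followed across 9 small RNA libraries of human cell lines in which ERH had been targeted with siRNAs. HEK293E, derived from the embryonic kidney line HEK293, had 2 replicates each of siGFP, of siControl and of siERH-3. siERH-5 was used in its replicate 2 only, and all were harvested on day 5. K562, a leukaemia line with erythroid features, was electroporated with siGFP or siERH-5 in 1 library each and harvested 4 days later. Every library thus comes from siRNA-treated cells, siGFP and siControl served as controls, and no untransfected cells are among them. Whether the HEK293E replicates came from separately grown cultures is not stated, so p-values measure the spread between these libraries only.

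MicroRNAs are cut from hairpins in long primary transcripts by the Microprocessor, a complex of the nuclease DROSHA and the RNA-binding protein DGCR8. ERH is a small conserved nuclear protein that binds DGCR8. The mature microRNA then guides an Argonaute protein to messenger RNAs that pair with its seed, bases 2 to 8. The miR-148/miR-152 family is known for repressing DNMT1, the enzyme that copies DNA methylation marks onto newly made DNA. The -3p strand is the known main product of each of the 3 hairpins.

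The 3 main products are shown because they carry one seed and differ in very few bases. Seeds are in capitals, each sequence runs 5′ to 3′, and all come from the RefSeq table for GRCh38.p14.
hsa-miR-148a-3p: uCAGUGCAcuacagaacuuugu
hsa-miR-148b-3p: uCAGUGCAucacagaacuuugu
hsa-miR-152-3p: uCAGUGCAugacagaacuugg
Counted from 1 at the 5′ end, the changes from hsa-miR-148a-3p to hsa-miR-148b-3p are C9U and U10C, over 22 positions. From hsa-miR-148a-3p to hsa-miR-152-3p they are C9U, U10G and U20G, over 21 positions, and from hsa-miR-148b-3p to hsa-miR-152-3p they are C10G and U20G. Of the 2370 mature names in the RefSeq table, 3 carry this seed, and they are these 3. How reads with a mismatch, or with several possible origins, were assigned is not given in the sources used here.

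The hairpins themselves are the units that were counted, and they are shown with the -3p arm in capitals to place that arm.
hsa-mir-148a: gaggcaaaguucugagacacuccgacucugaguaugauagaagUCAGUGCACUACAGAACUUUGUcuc
hsa-mir-148b: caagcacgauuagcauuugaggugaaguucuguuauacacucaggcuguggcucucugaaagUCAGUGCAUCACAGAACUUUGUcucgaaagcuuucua
hsa-mir-152: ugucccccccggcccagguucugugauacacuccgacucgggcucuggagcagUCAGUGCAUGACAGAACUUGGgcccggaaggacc
hsa-mir-148a (chr7:25949919-25949986, minus strand) overlaps no other gene of the GENCODE release 29 basic set. hsa-mir-148b (chr12:54337216-54337314, plus strand) lies in an intron of COPZ1, and also within AC078778.2, a sense-overlapping transcript. hsa-mir-152 (chr17:48037161-48037247, minus strand) lies in an intron of COPZ2. COPZ1 and COPZ2 encode paralogous subunits of the coatomer coat of transport vesicles. None of the 3 has another microRNA gene within 10 kb on its strand, and the nearest ones are 1219.5, 303.2 and 119.2 kb away. GC content was 45.6% for hsa-mir-148a, 43.4% for hsa-mir-148b and 63.2% for hsa-mir-152. In the RNAfold structures, 19 of 22, 20 of 22 and 19 of 21 bases of the -3p arms were paired.

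The seed has a full match in DNMT1, which is shown because it is the best-known target of the family. The match TGCACTG, searched on the transcript strand, starts at base 48 of the 321-base 3′ UTR of transcript DNMT1-201 and is followed by an A. The site, with the match in capitals, reads as follows (chr19:10133612-10133634, minus strand).
DNMT1 site: caggaatccccaacaTGCACTGa
The same 7 letters occur in the first 321 bases of the 3′ UTR of 3.45% of 15180 genes with a 3′ UTR at least that long. DNMT1 mRNA was not measured in small RNA libraries, and neither was ERH mRNA, so knockdown could not be checked here.

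The libraries held 2609929 to 3320017 hairpin counts. The erythroid hairpins hsa-mir-144, hsa-mir-451a and hsa-mir-486-1 were all detected in every library. Their summed level was 44086 and 50917 CPM, relative to the library total, in K562 and 935 to 1557 in HEK293E. The HEK293E sums came mainly from hsa-mir-486-1, with 2360 to 4523 counts. There hsa-mir-144 had 49 to 87 counts and hsa-mir-451a 51 to 105. The 5 epithelial hairpins of the miR-200 family were detected throughout, with sums of 428 to 679 in HEK293E and 228 and 321 in K562. Detected here means a count above 0. In K562 the sums came mainly from hsa-mir-200c and hsa-mir-141, and hsa-mir-429 had only 2 counts with siGFP and 7 with siERH-5. Of the 4 hairpins of other blood lineages, hsa-mir-155 was at 0 in the K562 siGFP library. Their sums were 79115 and 79181 in K562, mainly from hsa-mir-142 and hsa-mir-223, and 105 to 445 in HEK293E. hsa-mir-155 had 70 to 202 counts in HEK293E against 0 and 2 in K562, and hsa-mir-150 had 5 to 36 against 13 and 15.

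The order of the members was the same in all 9 libraries: hsa-mir-148a was the most abundant, hsa-mir-148b the next and hsa-mir-152 the least. Each hairpin yields mature forms of nearly equal length, so counts were compared between members without a length correction. In the 4 HEK293E control libraries, hsa-mir-148a had 57.6% to 62.5% of the family's counts, hsa-mir-148b 33.7% to 36.3% and hsa-mir-152 3.58% to 6.16%. Across libraries the control levels of the top 2 members overlapped, but within each control library hsa-mir-148a had 1.59 to 1.85 times the counts of hsa-mir-148b. By mean level over the HEK293E libraries, the members ranked 50th, 71st and 191st among the 773 hairpins tested. Together they made up 0.805% to 1.19% of all hairpin counts with a control siRNA in HEK293E and 0.855% to 0.978% with an siRNA to ERH, ranges that overlap.

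**Figure D1:**
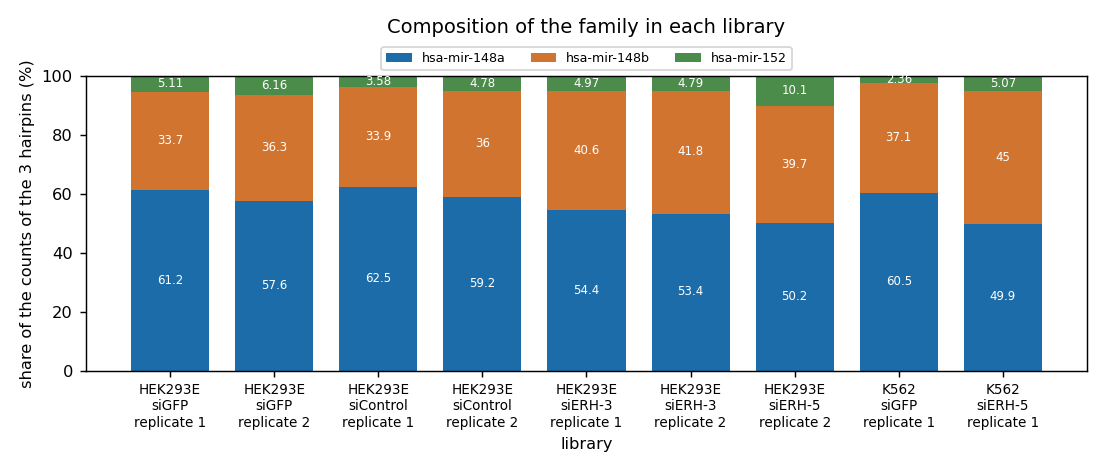
Share of the summed counts of the 3 hairpins (%, y axis) that each member took in each of the 9 libraries (x axis). The hsa-mir-148a part was 57.6% or more in the 5 control libraries and 54.4% or less in the 4 siERH libraries of both lines. How often shares of other hairpins separate these libraries was not counted.

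The first comparison asked how the family's abundance differs when ERH is targeted in HEK293E, with 3 siERH libraries against 4 control libraries. Levels are CPM (counts per 1e+06), scaled by the TMM method over the 7 libraries, and a change is called at an adjusted p under 0.05 over all 773 hairpins. This fit left out the replicate number, and hsa-mir-148a passed with it as a block, as given below. Without the block none of the 3 members passed in either direction, where 16.2% of all hairpins were called lower and 23.8% higher. None had its siERH libraries entirely outside the control range, where 19.1% of all hairpins lay below it and 25.5% above it. hsa-mir-148a came closest, with a lower level in each siERH library than in both controls of its own replicate. The share of all hairpins with that pattern was not counted. In replicate 1 the log2 difference of hsa-mir-148a from siGFP was only -0.10. In these RNA extracts from whole cultures, fewer cells that make a microRNA and less of it per cell cannot be told apart.

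hsa-mir-148a had 4575 and 7314 CPM with siGFP in replicates 1 and 2, and 5969 and 8188 CPM with siControl. It had 4262 and 4720 CPM with siERH-3, and 4526 CPM with siERH-5. The siERH libraries lay close together and below 3 of the 4 controls, while siGFP replicate 1 fell within their range. The control mean was 6511 ± 1581 CPM (SD, n = 4), and the siERH mean was 4503 ± 230.0 CPM (SD, n = 3). The log2 fold change was -0.53 ± 0.20 (SE), which is 0.692 times the control level, with an adjusted p of 0.0527 by edgeR's quasi-likelihood test. With the replicate number as a block, hsa-mir-148a fell by 0.57 on the log2 scale (edgeR adjusted p = 0.00495, where the 17 alternatives ranged from 0.000439 to 0.2). In that blocked comparison 20.6% of all hairpins were called lower and 28.1% higher. The same block also called 18.2% of 730 hairpins between the control siRNAs, in either direction, where the fit without it called 0. It also passed without siGFP replicate 1, at -0.67 (edgeR adjusted p = 0.0061). That library was its lowest control, so leaving it out raises the control mean. In that setting 130 of 770 hairpins were called lower and 189 higher. hsa-mir-148a passed in 8 of the 17 alternatives, which reuse the same 7 libraries and are not independent checks. hsa-mir-148b and hsa-mir-152 were not called with the replicate block alone. Within replicate 1 the siERH-3 library was lower by 0.10 than siGFP and by 0.49 than siControl in log2 CPM. Within replicate 2 both siERH libraries were lower than both controls, by 0.63 to 0.86.

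hsa-mir-148b had 2514 and 4610 CPM with siGFP, and 3234 and 4989 CPM with siControl. It had 3180 and 3699 CPM with siERH-3, and 3583 CPM with siERH-5. All 3 siERH values lay inside the control range. siERH differed from control by -0.14 ± 0.23 on the log2 scale (SE; edgeR adjusted p = 0.66), from 3837 ± 1160 CPM (SD, n = 4) to 3487 ± 273 CPM (SD, n = 3). Its sign depended on the scaling, since with library totals in place of TMM it was 0.077. Against the mean of the controls of their own replicate, siERH-3 was 0.16 higher in replicate 1, and siERH-3 and siERH-5 were 0.37 and 0.42 lower in replicate 2.

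hsa-mir-152 had 382 and 782 CPM with siGFP, and 341 and 661 CPM with siControl. It had 389 and 423 CPM with siERH-3, but 909 CPM with siERH-5. The siERH-5 library was the highest of the 7, and both siERH-3 libraries lay inside the control range. Its change was 0.084 ± 0.36 in log2 (SE; edgeR adjusted p = 0.867), from 542 ± 214 CPM (SD, n = 4) to 574 ± 291 CPM (SD, n = 3). It was -0.41 without the siERH-5 library, -0.027 with the replicate block and -0.034 with siGFP alone as control, so it has no settled direction in these libraries.

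**Figure D2:**
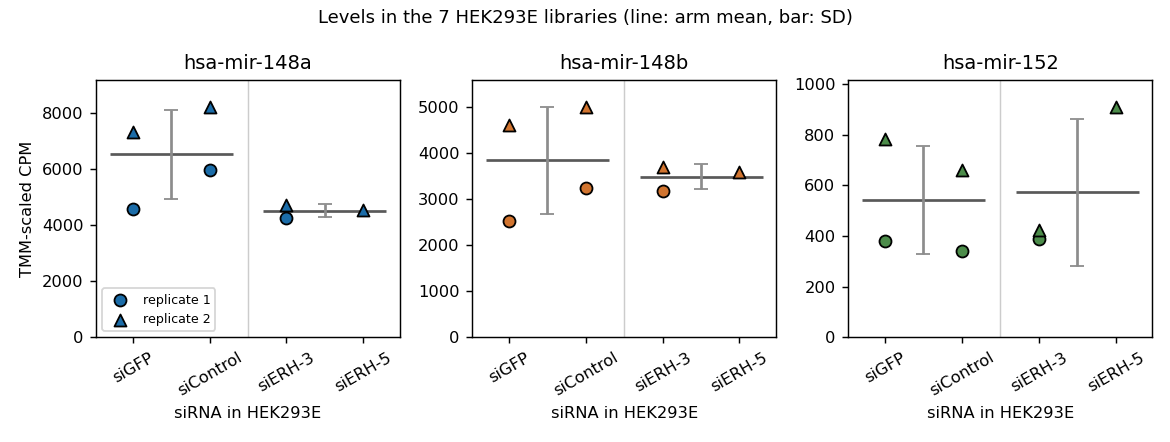
TMM-scaled CPM (y axis, from 0) of each member in the 7 HEK293E libraries by siRNA (x axis). Circles are replicate 1, triangles replicate 2, and lines and bars give the mean and SD of the 4 control and 3 siERH libraries. The siERH values of hsa-mir-148a lie between 4262 and 4720 CPM, and hsa-mir-152 is highest with siERH-5, at 909 CPM.

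The replicates contributed much of this spread. From replicate 1 to replicate 2, hsa-mir-148a was higher by 0.68 with siGFP, 0.46 with siControl and 0.15 with siERH-3 in log2 CPM. The differences were 0.87, 0.63 and 0.22 for hsa-mir-148b, and 1.03, 0.95 and 0.12 for hsa-mir-152. All 9 differences had the same sign, and for each member the siERH-3 difference was the smallest. Whether these differences differ between siRNAs was not tested, and how many of all hairpins share this pattern was not counted. Over 773 hairpins, replicate differences correlated between siRNAs (r = 0.48 to 0.692), so the 9 are not separate observations.

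Among the 773 hairpins, the change of hsa-mir-148a stood at the 21.3rd percentile, that of hsa-mir-148b at the 41.9th and that of hsa-mir-152 at the 53.2nd, with a median of -0.01 over all hairpins. On library totals that median moved by 0.20 and hsa-mir-148a was at -0.32. The lower share of all calls then went from 40.45% to 24.01%, and it was 54.38% after a trend with hairpin GC content had been taken out.

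**Figure D3:**
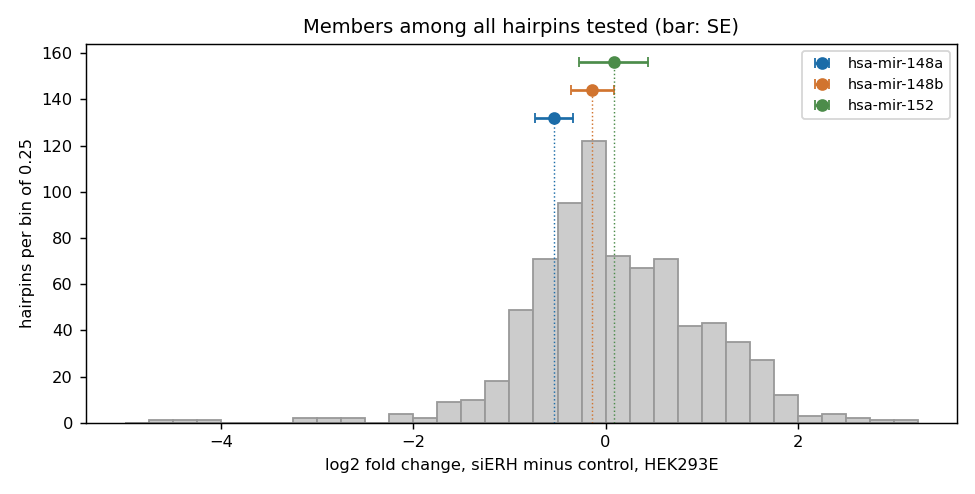
Histogram of the log2 fold change, siERH minus control, of 773 hairpins in HEK293E (x axis, in bins of 0.25) by number of hairpins (y axis). Points with SE bars, set above the histogram for legibility, mark the 3 members at -0.53, -0.14 and 0.084.

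siERH-3 alone, with 2 libraries against the same 4 controls, gave no call among the members, where 11.5% of 759 hairpins were lower and 19.1% higher. The log2 fold changes were -0.53 ± 0.25 for hsa-mir-148a, -0.15 ± 0.28 for hsa-mir-148b and -0.41 ± 0.35 for hsa-mir-152 (SE; edgeR adjusted p = 0.142, 0.732 and 0.416). With the replicate block hsa-mir-148a passed, at -0.50 (edgeR adjusted p = 0.031, with 0.0282 to 0.443 over 10 alternatives, the lowest without siGFP replicate 1), in a comparison that called 18.7% of hairpins lower. These comparisons share their control libraries with the one above.

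The 2 control siRNAs gave the background of these changes. Between siControl and siGFP, edgeR called 0 of 730 hairpins (0%), with 24 at an unadjusted p under 0.05, and DESeq2 called 4. With the replicate block edgeR called 18.2%. The members differed by 0.25 ± 0.33, 0.21 ± 0.38 and -0.21 ± 0.47 (SE) for hsa-mir-148a, hsa-mir-148b and hsa-mir-152, each with an edgeR adjusted p of 0.959. With the block hsa-mir-148a was 0.27 higher with siControl (edgeR adjusted p = 0.0657, the lowest of its 8 alternatives, which reached 1). Neither it nor the others were called.

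Ratios between members within a library do not depend on how libraries are scaled. The log2 ratio of hsa-mir-148a to hsa-mir-148b was 0.86 and 0.67 with siGFP in replicates 1 and 2, and 0.88 and 0.71 with siControl. It was 0.42 and 0.35 with siERH-3, and 0.34 with siERH-5. All 3 siERH libraries lay below all 4 controls. How many other pairs of hairpins separate the arms in this way was not counted. Among single hairpins, 19.1% of 773 had all siERH libraries below the control range and 25.5% above it. The means were 0.78 ± 0.11 (SD, n = 4) and 0.37 ± 0.05 (SD, n = 3), a difference of -0.41. The exact permutation test over 35 splits, two-sided on the size of the difference, gave p = 0.0286, the smallest that 35 splits allow, and 0.0858 after adjustment over the 3 pairs of members. The difference was -0.45 within replicate 1 and -0.35 within replicate 2. With each replicate centred, which serves as the block, it was -0.38 (exact permutation p = 0.0556, the smallest that 18 splits allow). Between the control siRNAs the same ratio differed by 0.035.

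In the ratios with hsa-mir-152, the single siERH-5 library stood apart from the other 6 of HEK293E. The log2 ratio of hsa-mir-152 to hsa-mir-148b was between -3.24 and -2.56 in the controls, -3.03 and -3.13 with siERH-3, and -1.98 with siERH-5. Both siERH-3 libraries were inside the control range and the siERH-5 library above it. The mean difference of siERH from control was 0.15 (exact permutation p = 0.743, adjusted over the 3 pairs 0.743). For hsa-mir-152 to hsa-mir-148a it was 0.56 (exact permutation p = 0.286, adjusted over the 3 pairs 0.429).

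**Figure D4:**
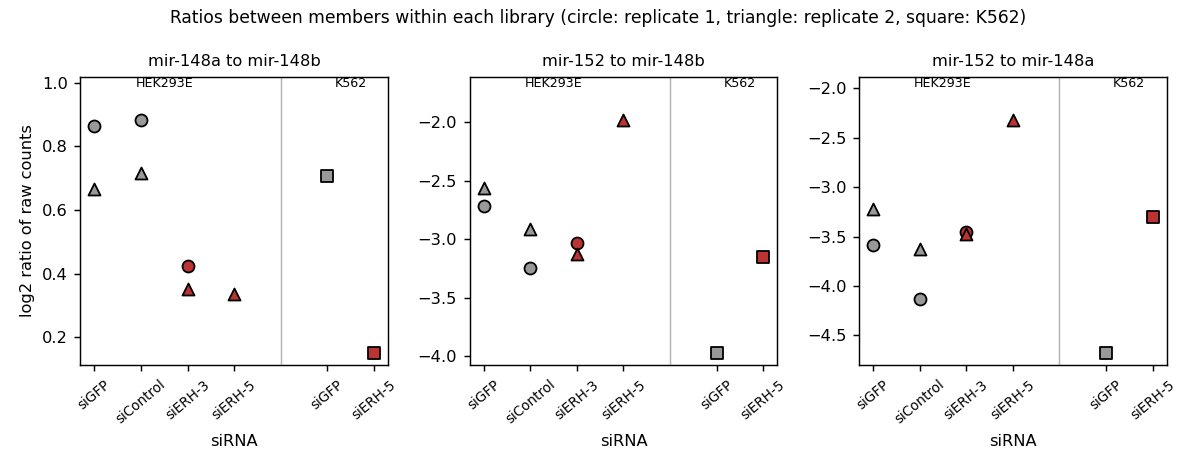
log2 ratio of raw counts between pairs of members (y axis, a scale per panel) by siRNA and cell line (x axis). Grey points are control libraries and red points siERH libraries. In HEK293E the ratio of hsa-mir-148a to hsa-mir-148b is 0.67 to 0.88 in control and 0.34 to 0.42 in siERH libraries, and the ratios with hsa-mir-152 are highest with siERH-5.

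The 2 siERH sequences were set side by side within replicate 2, 1 library each, with no test. hsa-mir-148a and hsa-mir-148b were nearly equal, with 4720 and 4526 CPM for the first and 3699 and 3583 CPM for the second. hsa-mir-152 had 1388 counts with siERH-3 and 3199 with siERH-5, a log2 ratio of 1.10 (95% exact binomial interval 1.01 to 1.19, counting error only). Of 773 hairpins, 2.59% were at least 2-fold higher with siERH-5 in the same pair of libraries. The share of hsa-mir-152 in the family was 4.79% (95% Wilson interval 4.55% to 5.04%) with siERH-3 and 10.1% (9.75% to 10.4%) with siERH-5.

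K562 was compared next, siERH-5 against siGFP, with 1 library each and therefore no replicate check. In HEK293E, hsa-mir-152 lay above the control range with siERH-5 but not with siERH-3. K562 received siERH-5 only, so effects of that sequence and of ERH knockdown cannot be told apart here. Among the 646 hairpins compared, the log2 ratio of hsa-mir-148a stood at the 21.98th percentile and that of hsa-mir-152 at the 90.4th. That of hsa-mir-148b stood near the middle, at the 56.35th. hsa-mir-148a was at 6282 counts in the siGFP library and 7623 in the siERH-5 library, or 2652 and 2083 CPM after TMM scaling of these 2 libraries. Its log2 ratio was -0.35 (95% exact binomial interval -0.40 to -0.30, counting error only), and -0.066 on library totals. hsa-mir-148b had 3851 and 6873 counts, with a log2 ratio of 0.21 (0.15 to 0.27), and 0.49 on library totals. hsa-mir-152 had 245 and 775 counts, with a log2 ratio of 1.03 (0.82 to 1.25), and 1.31 on library totals. Of the 646 hairpins with a mean count of 10 or more, 10.1% were at least 2-fold higher and 6.81% at least 2-fold lower, and the median log2 ratio was 0.11. hsa-mir-152 was the member nearest to that mark, past it at 1.03 with a pseudocount of 1 CPM and short of it at 0.97 with a pseudocount of 10 CPM.

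The composition of the family differed between the 2 K562 libraries. hsa-mir-148a took 60.5% of the family's counts in the siGFP library (95% Wilson interval 59.6% to 61.5%), against 49.9% in the siERH-5 library (49.1% to 50.7%). The share of hsa-mir-148b was 37.1% and 45.0%, and that of hsa-mir-152 was 2.36% (2.09% to 2.67%) and 5.07% (4.74% to 5.43%). The log2 ratio of hsa-mir-148a to hsa-mir-148b went from 0.71 to 0.15, a change of -0.56. The siGFP value lay within the range of the HEK293E controls, and the siERH-5 value below all HEK293E libraries. This compares 2 libraries, and the difference of the change between the cell lines was not tested.

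Levels were then compared between the lines under siGFP, with 1 K562 library against 2 of HEK293E and no test. The outcome depended on the scaling for 2 of the 3 members. In the deposited RPM, which is relative to the library total, hsa-mir-148a had 2402 in K562 against 4927 and 6641 in HEK293E. hsa-mir-148b had 1473 against 2708 and 4186, and hsa-mir-152 had 94.1 against 412 and 711. All 3 were thus lower in K562 on that scale, and the family made up 0.397% of the K562 siGFP library (95% Wilson interval 0.389% to 0.405%) and 0.460% of the siERH-5 library (0.453% to 0.467%). TMM factors over the 9 libraries were 0.531 and 0.661 for K562 and 1.00 to 1.28 for HEK293E. After that scaling hsa-mir-148a had 4525 CPM in K562, between the HEK293E values of 3914 and 6280, and hsa-mir-148b had 2774 CPM, between 2151 and 3958. hsa-mir-152 had 176 CPM against 327 and 672, which is 2.65 times lower in K562 on the log2(CPM + 1) scale. The log2 differences were -0.13, -0.073 and -1.40 with TMM and -1.25, -1.19 and -2.52 on library totals. Over 741 hairpins the median with TMM was -0.19, with 31% at least 2-fold lower in K562 and 24.8% at least 2-fold higher. The cell line, the harvest day and the experimental group of the labels cannot be told apart.

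**Figure D5:**
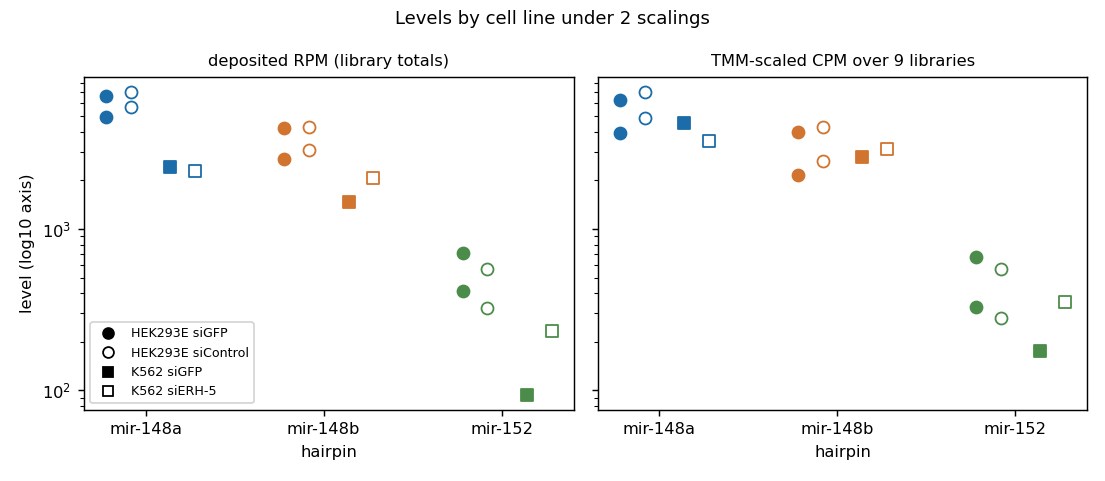
Level of each member (y axis, log10 scale) in the HEK293E control libraries (circles) and the K562 libraries (squares), as deposited RPM on the left and as TMM-scaled CPM over 9 libraries on the right. hsa-mir-148a and hsa-mir-148b in K562 siGFP lie below HEK293E siGFP on the left and among its values on the right, and hsa-mir-152 lies below on both.

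Other microRNAs reported to act on DNA methyltransferases were counted from a list of 8 hairpins, all of them tested in HEK293E. Of these 8, 3 fell, 1 rose and 4 were not called, where 16.2% of all 773 hairpins were called lower and 23.8% higher. Their median log2 fold change was -0.38 against -0.01 over all hairpins. The list holds hsa-mir-29a, hsa-mir-29c and the copies hsa-mir-29b-1 and hsa-mir-29b-2, all of the miR-29 family, so its members are not all separate cases. The list was also chosen with earlier results of these data known. hsa-mir-29a and hsa-mir-29c, of the miR-29 family that represses DNMT3A and DNMT3B, changed by -0.66 ± 0.14 and -1.06 ± 0.18 (SE; edgeR adjusted p = 0.00506 and 0.00114). The control level of hsa-mir-29a was 5745 ± 122 CPM (SD, n = 4) and that of hsa-mir-29c 4046 ± 682 CPM (SD, n = 4), against siERH levels of 3645 ± 398 and 1941 ± 204 CPM (SD, n = 3). After the GC trend had been taken out, hsa-mir-29a was at -1.30 (edgeR adjusted p = 0.000157, where all 17 alternatives lay between 5.29e-06 and 0.0382). hsa-mir-126, an endothelial microRNA reported to act on DNMT1, changed by -0.69 ± 0.20 (SE; edgeR adjusted p = 0.0175), and its call was lost without siERH-3 replicate 1 (0.0729), without siERH-5 (0.0685) and with siGFP alone as control (0.0529). hsa-mir-143, a smooth muscle microRNA reported to act on DNMT3A, changed by 1.22 ± 0.31 (SE; edgeR adjusted p = 0.0107), from 38.1 ± 18.0 CPM (SD, n = 4) to 88.8 ± 1.44 CPM (SD, n = 3). With siControl alone as control its adjusted p was 0.0505. The copies hsa-mir-29b-1 and hsa-mir-29b-2, which hold one mature sequence and so share reads, had -0.30 and -0.29, not called, but passed at -0.83 each with the GC trend out (edgeR adjusted p = 0.00695 and 0.00672, reaching 9.78e-05 to 0.758 over the alternatives). hsa-mir-185 and hsa-mir-342, both reported to act on DNMT1, had -0.17 and -0.46. With the replicate block 6 of the 8 were called lower and 1 higher, where 20.6% of all hairpins were called lower and 28.1% higher. The additions were hsa-mir-342 and the copies hsa-mir-29b-1 and hsa-mir-29b-2, and the same block called 18.2% of hairpins between the control siRNAs.

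The hairpins most alike to each member were sought by Pearson's r of log2(CPM + 1) over the 7 HEK293E libraries, among 245 hairpins that averaged 100 CPM or more. For hsa-mir-148a they were hsa-mir-421 (0.983), hsa-mir-598 (0.971) and hsa-mir-106b (0.962). For hsa-mir-148b they were hsa-mir-23b (0.994), hsa-mir-20a (0.984) and hsa-mir-17 (0.981). For hsa-mir-152 the values were lower, with hsa-mir-140 (0.865), hsa-mir-18b (0.803) and hsa-mir-484 (0.802). Between members, r was 0.788 for hsa-mir-148a and hsa-mir-148b, 0.66 for hsa-mir-148b and hsa-mir-152, and 0.375 for hsa-mir-148a and hsa-mir-152. Each r is a description over the same 7 libraries, which share the scaling and the difference between replicates.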

How the data were processed

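Small RNA of 18 to 30 nt was sequenced from 9 libraries. Per the labels' protocols, spike-in RNAs were added and adapters carried random nucleotides. Spike-ins were not used here, so changes are relative to the other hairpins. The authors deposited raw counts per hairpin, with blanks read as 0, and RPM values. By recomputation, the deposited RPM equals (count + 1) / (library total + 1485), times 1e+06. The submitters' processing notes name cutadapt, Bowtie2, bedtools and hg38. Arms are not separated in the table, and molecule collapsing is not given in the sources used here, so intervals cover counting error only. A count of 3 corresponds to 0.904 to 1.15 RPM.

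Libraries were grouped by cell line, siRNA and replicate in their titles. edgeR 4.0.16 (R 4.3.3) was run with TMM and quasi-likelihood tests on hairpins whose mean count was 10 or more, with Benjamini-Hochberg adjustment. On simulated data with 773 hairpins it recovered 146 of 200 planted 2-fold changes, with 5 unchanged hairpins called. The simulated counts held no difference between replicates, unlike these libraries, and smaller changes were not planted. These figures therefore do not give the error rates of the tests here. The SE is the log2 fold change over the square root of F. Single-library log2 ratios used CPM plus 1. Alternatives used DESeq2 1.42.0, limma 3.58.1 on log2(RPM + 1), library totals, no filter, a pseudocount of 10, a GC trend, other controls, a replicate block and leaving out libraries. Within HEK293E the replicate numbers match the labels' experimental groups. Deviations of same-numbered HEK293E libraries correlated across 773 hairpins (r = 0.48 to 0.692). The block stands for this pairing. It was run as an alternative, and the main fit left it out. Sequences are from RefSeq (GRCh38.p14, 1168 of 1485 hairpins matched), context and GC from GENCODE release 29 (1480 matched), and folds from RNAfold 2.7.2.

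Named hairpins are the 3 members, the 3 most alike to each over HEK293E, and the list of 8. Members and lists were chosen with earlier results of these data known.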

Additional observations from a re-analysis of the deposited data

How the results depend on the processing

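Settings were varied singly, and the block and the GC trend also jointly. The count of 125 lower hairpins became 67 with library totals as the scale, 66 under limma, and 76 to 130 when 1 library was left out (76 without siERH-3 replicate 2 and 77 without siERH-3 replicate 1). The 184 higher hairpins stayed within 1.5 times. The lower share of calls, 40.45%, was 24.01% on library totals, 23.66% with limma, 54.38% with the GC trend removed and 52.25% with that and the replicate block.

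The log2 fold change of hsa-mir-148a was below 0 in all 17 alternatives and passed the threshold in 8. It was -0.60 with DESeq2, -0.63 with no filter, -0.77 with the GC trend removed, -0.57 with the replicate block, -0.80 with both, -0.68 with siControl alone, -0.70 in replicate 2 alone, and -0.67 to -0.41 with 1 library left out, passing without siGFP replicate 1 (edgeR adjusted p = 0.0061, against 0.0741 to 0.146 without each of the others). hsa-mir-148b was 0.077 on library totals, 0.10 with limma, and -0.30 to 0.0059 with 1 library left out. It passed at -0.53 with the GC trend removed under the replicate block and at -0.35 in replicate 2 alone (edgeR adjusted p = 0.0084 and 0.0473, range over alternatives 0.0084 to 0.986). hsa-mir-152 was -0.024 with no filter, -0.027 with the replicate block, -0.034 with siGFP alone, -0.066 in replicate 2 alone, and -0.41 to 0.34 with 1 library left out, and passed in none of 17. hsa-mir-185 was 0.014 on library totals, 0.028 with limma and 0.030 in replicate 2 alone.

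For siERH-3 alone, hsa-mir-148a was -0.50 with the replicate block and -0.67 to -0.40 with 1 library left out, passing without siGFP replicate 1 (edgeR adjusted p = 0.0282). hsa-mir-148b was 0.051 on library totals and -0.31 to 0.0023 with 1 library left out. Between siControl and siGFP, leaving out 1 library gave -0.027 to 0.61 for hsa-mir-148a, -0.15 to 0.70 for hsa-mir-148b and -0.78 to 0.38 for hsa-mir-152. Where an arm was left with 1 library, that library is assumed to vary like the others.

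The log2 ratio of hsa-mir-148a to hsa-mir-148b was -0.38 with the replicate block, -0.39 with siERH-3 only and -0.45 to -0.38 with 1 library left out. Its exact permutation p was then 0.0556, 0.0667 and 0.0667 to 0.1, each the smallest that the remaining splits allow. That of hsa-mir-152 to hsa-mir-148b was -0.22 with siERH-3 only and -0.22 to 0.35 with 1 library left out, and that of hsa-mir-152 to hsa-mir-148a was above 0 in all 10 alternatives.

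In K562, library totals and the deposited RPM gave -0.066 for hsa-mir-148a, 0.49 for hsa-mir-148b and 1.31 for hsa-mir-152, which was 0.97 with a pseudocount of 10. Between the lines, library totals gave -1.25, -1.19 and -2.52, and leaving out 1 HEK293E siGFP library gave -0.47 to 0.21, -0.51 to 0.37 and -1.92 to -0.89. The cause was not tested for any of them. The replicate block by itself changed no other call of a member.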
